A study of Sus scrofa with 16 samples.

Results

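The genes of complement, blood clotting and fibrinolysis were examined in left ventricular RNA of pigs after a myocardial infarction. The list held 51 genes, and a gene was measured where the platform annotation gives it as the only symbol of a probe set, a group of array probes for 1 transcript. By this rule 39 of the 51 genes were measured, among 6765 genes with such a probe set. Where a gene had several, the brightest on average across all 16 arrays was taken. The members not measured here were C6, CFI, C3AR1, C5AR1, F2, F7, F10, F11, F13A1, FGA, SERPINC1 and PLAUR.

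Each array held RNA of 1 animal. The groups were 8 pigs with an infarction (MI) and 8 sham-operated pigs (Sham), studied 3 weeks after surgery. All were Yorkshire x Landrace animals of 2 to 3 months, and each group held 4 animals labelled female and 4 labelled male, the males neutered. The labels do not say how the infarct was made or which part of the ventricle was taken, which limits what the samples stand for.

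Complement is a cascade of plasma proteins, many of them proteases, that tags surfaces through C3 and ends in a membrane pore built from C5 to C9. Clotting is a second protease cascade, started by tissue factor, that turns fibrinogen into fibrin. Fibrinolysis removes fibrin through plasmin, which the tissue-type and urokinase-type activators release from plasminogen. Most of the soluble factors come from the liver, while receptors, membrane regulators, tissue factor, thrombomodulin and the early complement proteases are also made by cells of many tissues, the heart included.

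Values are log2 signals, and each animal carries its group and number as a name. A total of 23 control probe sets have no target RNA in the sample, and their values ran from 3.08 to 4.99 with a median of 3.67. A member was called above background where its mean in either group exceeded 4.99. The poly-A spike-in controls separated the arrays into a set A of 11 and a set B of 5 arrays (MI 7, MI 8, Sham 6, Sham 7 and Sham 8). Results were therefore also computed within each set and in a fit blocked on the set. The fit of set A included sex. Set B held no MI animal labelled male, and its fit compared the groups without a sex term. Differences in set A and in set B are thus not the same estimate. The array of MI 7, labelled female, had a signal of 9.51 for EIF1AY, a chromosome Y transcript. The labelled males ran from 9.40 to 9.96 and the other 7 labelled females from 3.00 to 3.51, so results were also computed without MI 7. Heart muscle markers had high signals in every animal. The mean over 5 of them ran from 13.32 to 13.54 in MI and from 13.29 to 13.63 in Sham.

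**Figure D1:**
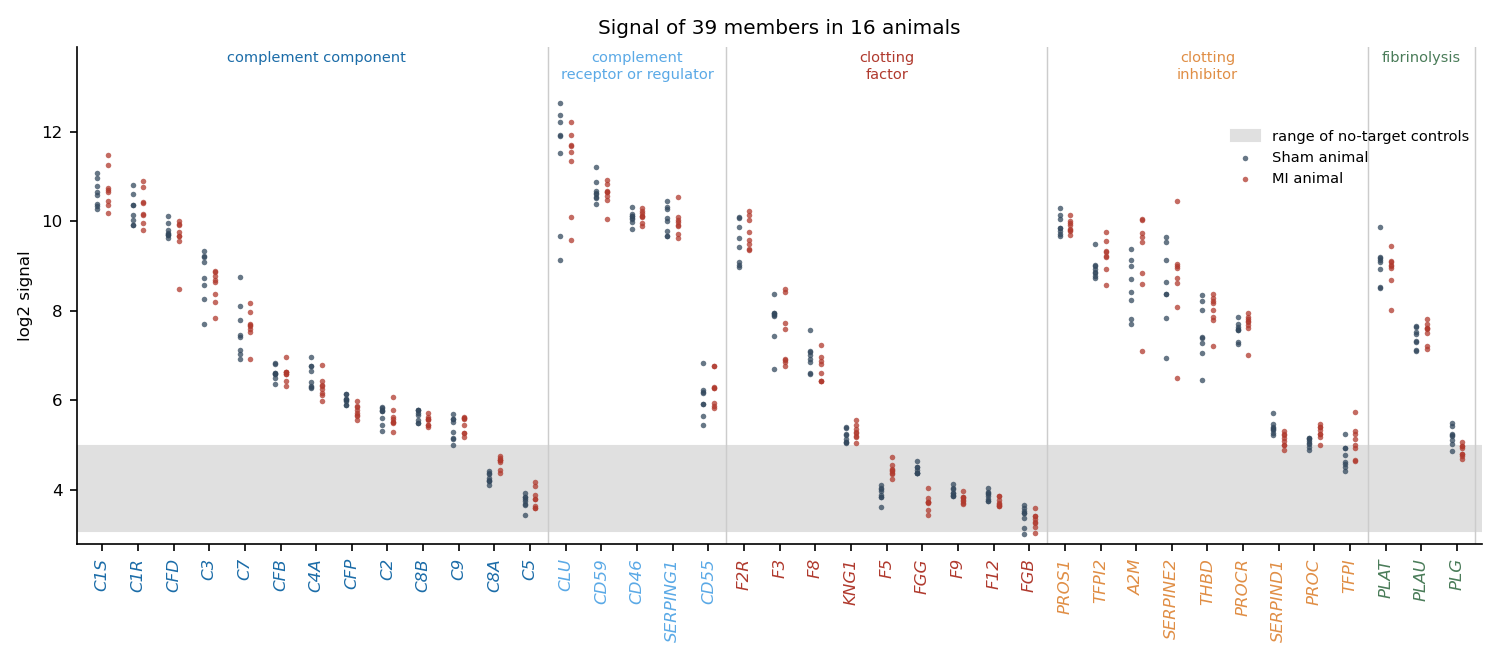
Log2 signal (vertical axis) of the 39 measured members in each of 16 animals, by role and in order of mean signal, with Sham and MI animals as separate points. The shaded band is the range of the no-target controls, 3.08 to 4.99, and 7 members lie within or below it in every animal.

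Of the 39 measured members, 32 were above background and 7 were not. The 7 were C5 and C8A of the terminal complement pathway and F5, F9, F12, FGB and FGG of the clotting cascade, and none of them exceeded 4.99 on any array. Signals of different probe sets do not order the abundance of their transcripts, so they are read here against background only. All 5 measured complement regulators, all 9 measured clotting inhibitors and all 3 measured fibrinolysis genes were above background, against 11 of 13 complement components and 4 of 9 clotting factors. Near the limit, PLG exceeded 4.99 on 8 arrays, TFPI on 6, PROC on 14 and SERPIND1 on 15.

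The first comparison asked which members differed between infarcted and sham-operated hearts. By limma 7 of 39 members passed at an adjusted p under 0.05. F5, C8A and PROC were higher in MI, and FGG, PLG, SERPIND1 and CFP were lower. The 32 others did not pass. In bulk RNA fewer cells of a type and less RNA per cell cannot be told apart. The share of members passing was 17.9%, where 7.63% of all 6765 genes (4.12% higher and 3.5% lower) and 10.5% of all probe sets passed. At an unadjusted p under 0.05 there were 11 members, and 18.1% of all genes. The groups did not overlap for 2 members, F5 and FGG, where 1.83% of all genes did not overlap. Over the 39 members 19 differences were positive and 20 negative. The median difference was -0.0086 on the log2 scale, beside 0.0048 over all genes, and the median size was 0.16 beside 0.10.

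The passing share depended on signal. Of the 7 members not above background 3 passed (FGG, F5 and C8A), and 20.1% of the 840 genes not above background passed in the same comparison. Of the 32 members above background 4 passed, against 5.86% of 5925 genes. Among the 4, PLG counted as above background through its Sham mean only (5.20, and 4.88 in MI). The no-target controls were put through the same fit. By limma 5 of the 23 passed (21.7%), 4 higher and 1 lower in MI, with differences from -0.26 to 0.39. The difference of C8A lay inside that range, and those of F5 and FGG lay outside it. With only 23 controls, this does not set F5 and FGG apart from the 840 genes not above background. When only probe sets above background were tested, limma called 0 of the 32 members (5 had an unadjusted p under 0.05), and the 4 members that had passed gave adjusted p-values from 0.0521 to 0.0844.

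**Figure D2:**
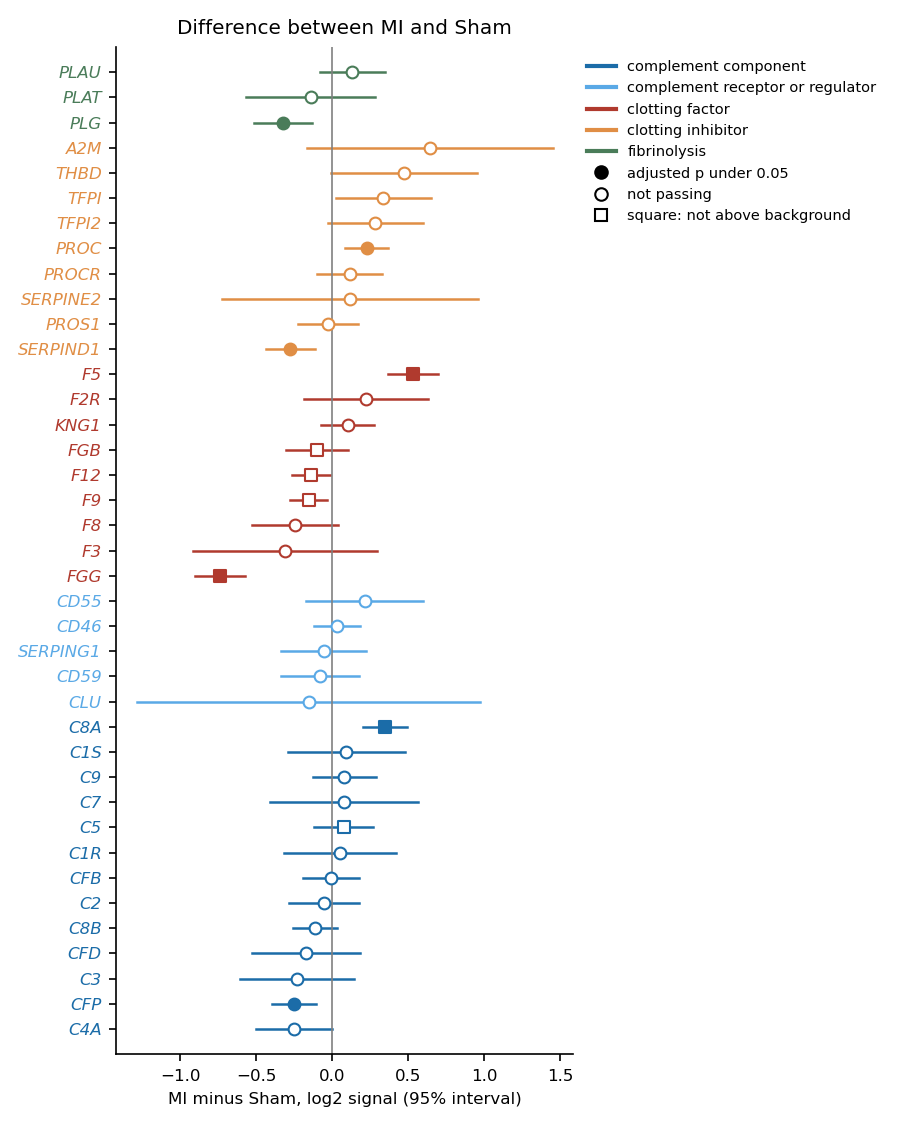
Difference in log2 signal between MI and Sham animals (horizontal axis, MI minus Sham, 8 animals each) with its 95% interval for the 39 members, by role. Filled symbols mark the 7 members with an adjusted p under 0.05 and squares the 7 members not above background; most intervals cross 0.

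Among 13 measured complement components 1 rose, 1 fell and 11 did not pass. C1S, the protease of the C1 complex that cleaves C4 and C2, ran from 10.18 to 11.48 in MI (median 10.68) and from 10.28 to 11.08 in Sham (median 10.62). The groups overlapped almost completely. The difference was 0.09 (95% interval -0.29 to 0.48, adjusted p = 0.824). C1R, which activates C1S, ran from 9.81 to 10.90 in MI (median 10.29) and from 9.92 to 10.82 in Sham (median 10.25), with a difference of 0.05 (-0.32 to 0.42, adjusted p = 0.903). C1R and C1S are neighbours in RefSeq's gene order on assembly Sscrofa11.1, with 0 protein-coding genes between them. MI 1 and MI 5 had the highest values of both in MI, and Sham 8 and Sham 3 in Sham.

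C3, the central component on which all activation routes meet, was 8.54 ± 0.37 in MI and 8.77 ± 0.57 in Sham (SD, n = 8 each), a difference of -0.23 (-0.61 to 0.14, adjusted p = 0.477). C4A, which forms the classical convertase with C2, was 6.30 ± 0.25 in MI and 6.56 ± 0.26 in Sham, with 7 of 8 MI animals below the Sham mean. Its difference of -0.25 had an unadjusted p of 0.0473 and an adjusted p of 0.204, so it did not pass. C2 and CFB, the paired proteases of the classical and alternative convertases, differed by -0.05 and -0.0086 (adjusted p = 0.826 and 0.968). C2 and CFB are direct neighbours, and 4 protein-coding genes lie between CFB and C4A. CFD, the protease that starts the alternative pathway and is abundant in fat cells, ran from 8.50 to 10.002 in MI (median 9.72) and from 9.63 to 10.13 in Sham (median 9.73). The low MI value belonged to MI 5 alone, and the difference of -0.17 did not pass (adjusted p = 0.602).

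CFP, properdin, the stabiliser of the alternative convertase made by white blood cells, was lower in MI. It ran from 5.56 to 5.99 in MI (median 5.75) and from 5.89 to 6.15 in Sham (median 6.01). Every MI animal lay below the Sham mean, while the highest MI animal, MI 8, lay inside the Sham range. The difference was -0.25 (SE 0.07, adjusted p = 0.0253), a 1.19-fold lower signal. A second CFP probe set went the other way, from 5.31 ± 0.16 in Sham to 5.56 ± 0.19 in MI (difference 0.24, adjusted p = 0.0686). With the mean of both probe sets the CFP difference was -0.0046 (adjusted p = 0.976; 0.0123 to 0.976 over 31 alternative fits). The call also ended in set A alone (adjusted p = 0.0763), without MI 7 and with the set as a block (0.0546), and without MI 2, MI 4, MI 5 or Sham 6 (up to 0.0543).

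In the terminal pathway C8A, the alpha chain of the pore protein C8, was higher in MI. It ran from 4.37 to 4.76 in MI (median 4.66) and from 4.11 to 4.42 in Sham (median 4.24). The lowest MI animal, MI 8, lay inside the Sham range, and the other 7 lay above every Sham animal. The difference was 0.35 (SE 0.07, adjusted p = 0.0041), but all values lay within the range of the no-target controls. C8B, the neighbouring gene that codes for the beta chain, was above background and differed by -0.11 (-0.26 to 0.03, adjusted p = 0.351). C9, which forms the pore wall, and C7, which inserts the complex into membranes, differed by 0.08 and 0.08 (adjusted p = 0.692 and 0.889). C5 differed by 0.08 at a signal not above background (adjusted p = 0.682).

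None of the 5 measured complement regulators passed between MI and Sham by limma (0 at an unadjusted p under 0.05). CLU, clusterin, a secreted chaperone that keeps the pore from inserting, ran from 9.59 to 12.22 in MI (median 11.63) and from 9.13 to 12.65 in Sham (median 11.91). The values overlapped over the whole range, and the difference was -0.16 (-1.28 to 0.97, adjusted p = 0.904). CD59, the membrane protein that blocks C9, ran from 10.05 to 10.93 in MI (median 10.66) and from 10.39 to 11.22 in Sham (median 10.62), a difference of -0.08 (-0.33 to 0.18, adjusted p = 0.758). CD46, the membrane cofactor for cleavage of C3b and C4b, differed by 0.03 (-0.12 to 0.18) and SERPING1, the C1 inhibitor, by -0.06 (-0.34 to 0.23). CD55, which speeds the decay of convertases, differed by 0.21 (-0.18 to 0.60, adjusted p = 0.542). Its direction also turned, from 0.60 in set A (adjusted p = 0.0506) to -0.35 in set B (0.649).

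Of 9 measured clotting factors 1 rose, 1 fell and 7 did not pass. FGG, the gamma chain of fibrinogen, was lower in MI. It ran from 3.44 to 4.04 in MI (median 3.73) and from 4.37 to 4.65 in Sham (median 4.42), and the groups did not overlap. The difference was -0.74 (SE 0.08, adjusted p = 5.68e-05). All values lay inside the range of the no-target controls, so no fold is given. A second FGG probe set had the same direction, 3.39 ± 0.15 in MI against 3.57 ± 0.10 in Sham (difference -0.18, adjusted p = 0.138). For the mean of both FGG probe sets the difference was -0.46. FGB, the beta chain, differed by -0.10 (-0.30 to 0.11, adjusted p = 0.599), also below background. FGG, FGA and FGB lie side by side in the annotation, and FGA was not measured here.

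F5, factor V, the cofactor that lets factor X cleave prothrombin and that platelets also carry, was higher in MI. It ran from 4.25 to 4.73 in MI (median 4.43) and from 3.61 to 4.11 in Sham (median 3.93). Every MI animal lay above every Sham animal. The difference was 0.53 (SE 0.08, adjusted p = 0.00048), again inside the range of the no-target controls. The calls of FGG, F5 and C8A held when any single animal was left out, in set A alone and in the fit blocked on the spike-in set. In set B, with 5 arrays, their differences were -0.74, 0.59 and 0.25 and none passed (adjusted p = 0.338, 0.369 and 0.608). Over 29 alternative fits their adjusted p-values reached those same values at most.

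Of the factors above background none passed by limma. F3, tissue factor, which starts clotting when blood meets tissue, ran from 6.77 to 8.48 in MI (median 7.27) and from 6.71 to 8.38 in Sham (median 7.93). MI 2 to MI 5 lay between 6.77 and 6.93 and the other MI animals between 7.60 and 8.48, so the MI values were split. The difference of -0.31 did not pass (-0.92 to 0.29, adjusted p = 0.572), and its direction turned between the spike-in sets, from -0.76 in set A (adjusted p = 0.131) to 0.76 in set B (0.516). F2R, the thrombin receptor of platelets and vessel walls, ran from 9.36 to 10.23 in MI (median 9.67) and from 8.99 to 10.10 in Sham (median 9.53), with a difference of 0.22 (adjusted p = 0.549), 0.43 in set A and -0.22 in set B. F8, factor VIII, the cofactor made largely by endothelium, lay below the Sham mean in 7 of 8 MI animals and below every Sham animal in 3. Its difference of -0.24 did not pass (adjusted p = 0.294). KNG1, kininogen, differed by 0.10 (adjusted p = 0.517).

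F9 and F12 were among the 3 members with the lowest p that did not pass. F9, factor IX, ran from 3.68 to 3.99 in MI (median 3.79) and from 3.86 to 4.14 in Sham (median 3.93), a difference of -0.16 (adjusted p = 0.0972). Its 2 other probe sets differed by 0.19 and 0.15, the opposite sign. F12, factor XII, ran from 3.64 to 3.87 in MI (median 3.69) and from 3.75 to 4.03 in Sham (median 3.89), a difference of -0.14 (adjusted p = 0.15). Both groups overlapped for both genes, at signals not above background.

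Of 9 measured clotting inhibitors 1 rose, 1 fell and 7 did not pass. SERPIND1, heparin cofactor II, an inhibitor of thrombin, was lower in MI. It ran from 4.89 to 5.32 in MI (median 5.14) and from 5.24 to 5.72 in Sham (median 5.37). No MI animal reached the Sham mean, and 6 of the 8 lay below every Sham animal. The difference was -0.28 (SE 0.08, adjusted p = 0.028). A second SERPIND1 probe set, below background, differed by -0.16 (adjusted p = 0.104). The call ended without MI 2, MI 3, MI 7 or Sham 7 (up to 0.0616), and without MI 7 with the set as a block (-0.24, 0.0652; 0.0163 to 0.498 over 31 alternative fits).

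PROC, protein C, which once activated cleaves factors V and VIII, was higher in MI. It ran from 4.999 to 5.47 in MI (median 5.30) and from 4.89 to 5.16 in Sham (median 5.06). MI 7 and MI 8, both in set B, had the lowest MI values. Only MI 7 lay inside the Sham range, and the other 7 lay above all Sham animals. The difference was 0.23 (SE 0.07, adjusted p = 0.043). The call held without MI 4 or MI 7 and ended when 1 of the other 14 was left out (up to 0.0865). The difference was 0.25 in set A (adjusted p = 0.0426) and 0.06 in set B (0.914), in a range of 0.019 to 0.914 over 31 alternative fits.

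The other listed members of the protein C system, THBD, PROCR and PROS1, did not pass. THBD, thrombomodulin, the endothelial receptor that turns thrombin towards protein C, was 8.00 ± 0.38 in MI and 7.52 ± 0.64 in Sham, and 7 MI animals exceeded the Sham mean. Its difference of 0.47 (-0.0063 to 0.95) had an adjusted p of 0.218, and THBD passed without Sham 2 (0.63, adjusted p = 0.0473; 0.0473 to 0.578 over 31 alternative fits). PROCR, the endothelial protein C receptor, differed by 0.12 (-0.10 to 0.33, adjusted p = 0.547). PROS1, protein S, the cofactor of activated protein C, ran from 9.70 to 10.14 in MI (median 9.88) and from 9.68 to 10.31 in Sham (median 9.85). The ranges overlapped, and its difference was -0.03 (-0.22 to 0.17, adjusted p = 0.899).

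TFPI, the inhibitor of tissue factor, was the third member with a low p that did not pass. It ran from 4.64 to 5.75 in MI (median 5.08) and from 4.43 to 5.25 in Sham (median 4.70), a difference of 0.34 (unadjusted p = 0.0361, adjusted p = 0.172). TFPI counted as above background through its MI mean only (5.09, and 4.75 in Sham). TFPI2, a related protease inhibitor of the matrix, ran from 8.59 to 9.75 in MI (median 9.28) and from 8.74 to 9.50 in Sham (median 8.91), a difference of 0.28 (-0.03 to 0.60, adjusted p = 0.266). A2M, the broad protease trap alpha-2-macroglobulin, was 9.20 ± 0.99 in MI and 8.56 ± 0.61 in Sham. Its difference of 0.64 was the largest positive value of any member and did not pass (-0.16 to 1.45, adjusted p = 0.337). The 2 other A2M probe sets differed by 0.53 and 0.20 (adjusted p = 0.161 and 0.149), the same sign. SERPINE2, protease nexin 1, an inhibitor of thrombin and plasminogen activators, differed by 0.11 (-0.73 to 0.96, adjusted p = 0.905).

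Of the 3 measured fibrinolysis genes 1 fell and 2 did not pass. PLG, plasminogen, ran from 4.69 to 5.07 in MI (median 4.88) and from 4.87 to 5.49 in Sham (median 5.21). All 8 MI animals lay below the Sham mean, and the MI mean of 4.88 was under the highest no-target value. The difference was -0.32 (SE 0.09, adjusted p = 0.0318). The call ended without MI 1, MI 3, MI 4, MI 8, Sham 3, Sham 4, Sham 6 or Sham 7 (up to 0.0665) and in set A (-0.31, 0.12; 0.00589 to 0.525 over 30 alternative fits). PLAT, the tissue-type activator, ran from 8.02 to 9.46 in MI (median 9.02) and from 8.52 to 9.87 in Sham (median 9.11), a difference of -0.14 (adjusted p = 0.739). PLAU, urokinase, ran from 7.16 to 7.82 in MI (median 7.60) and from 7.11 to 7.67 in Sham (median 7.40), a difference of 0.13 (adjusted p = 0.482).

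**Figure D3:**
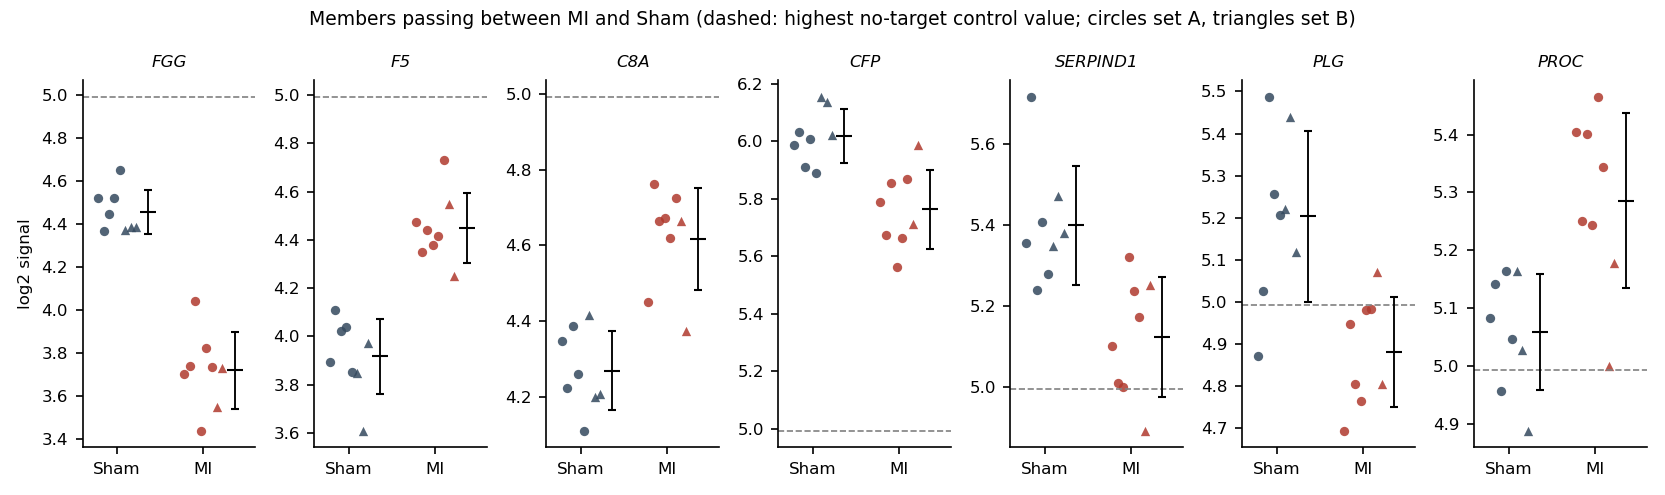
Log2 signal (vertical axes, each with its own range) of the 7 members passing between Sham and MI animals, 1 point per animal, circles for set A and triangles for set B, with bars for the mean ± SD (n = 8). FGG and F5 show no overlap between groups, and FGG, F5 and C8A lie wholly under the dashed line at 4.99, the highest no-target value.

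For 13 members the array carried 21 further probe sets. Of these 1 passed, a CD55 probe set with 3.89 ± 0.12 in Sham and 4.27 ± 0.14 in MI (difference 0.38, adjusted p = 0.0042), where 11% of the further probe sets of all genes passed. It lay below background. The other CD55 probe sets differed by 0.33, 0.17 and -0.09, and the brightest by 0.21. Of the 3 passing members with further probe sets, FGG and SERPIND1 had the same sign in both and CFP had opposite signs.

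**Figure D4:**
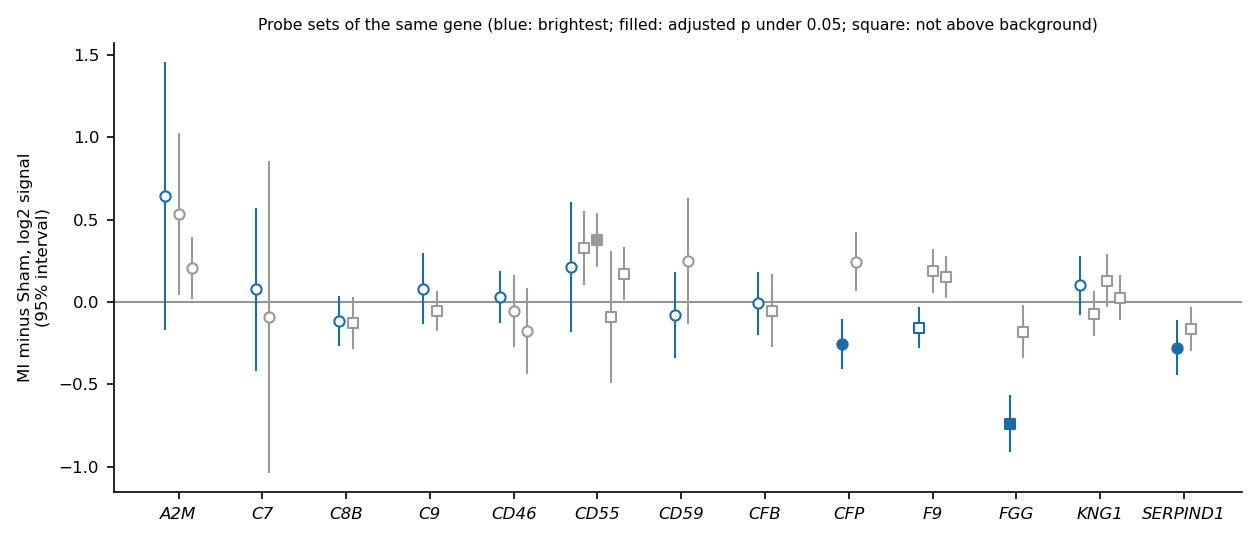
Difference in log2 signal between MI and Sham (vertical axis) with its 95% interval for every probe set of the 13 members with more than 1, the brightest in blue and the others in grey. Filled symbols passed and squares were not above background; the signs differ within 8 members (C7, C9, CD46, CD55, CD59, CFP, F9 and KNG1) and are the same within 5 (A2M, C8B, CFB, FGG and SERPIND1).

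Animals of the same group and sex differed more for some members than for others. The SD within group and sex had a median of 0.23 over the members, beside 0.21 over all genes. It was highest for CLU (1.19), SERPINE2 (0.89), A2M (0.85), F3 (0.63), C7 (0.51) and THBD (0.50), and 8 members lay in the top 10% of all genes. CLU was low in MI 6 (9.59), MI 7 (10.10), Sham 5 (9.68) and Sham 6 (9.13), while the other 12 animals lay between 11.36 and 12.65. The low animals thus came from both groups, both sexes as labelled and both sets. SERPINE2 was 9.06 ± 0.67 in set A (n = 11) and 7.65 ± 0.88 in set B (n = 5), and its lowest values were those of MI 7 (6.49) and Sham 6 (6.94), both in set B. The difference of SERPINE2 between the sets was not itself tested. Set B held 0 MI males and 2 Sham males, beside 2 MI females and 1 Sham female as labelled. The difference between the sets exceeded 0.3 in size for 10 of the 39 members, and its median size was 0.17 over members and 0.18 over all genes. The difference between MI and Sham had opposite signs in set A and set B for 12 of the 39 members. None of the 12 passed in either set by limma. The share of all genes with opposite signs was not counted, so the 12 cannot be called unusual. The fit of set B also lacked the sex term that the fit of set A had. For A2M the lowest animal was MI 6 (7.11), which was also low for CLU and PLAT. For C7, whose second probe set varied with an SD of 1.12 in Sham, Sham 3 was highest at 8.76.

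**Figure D5:**
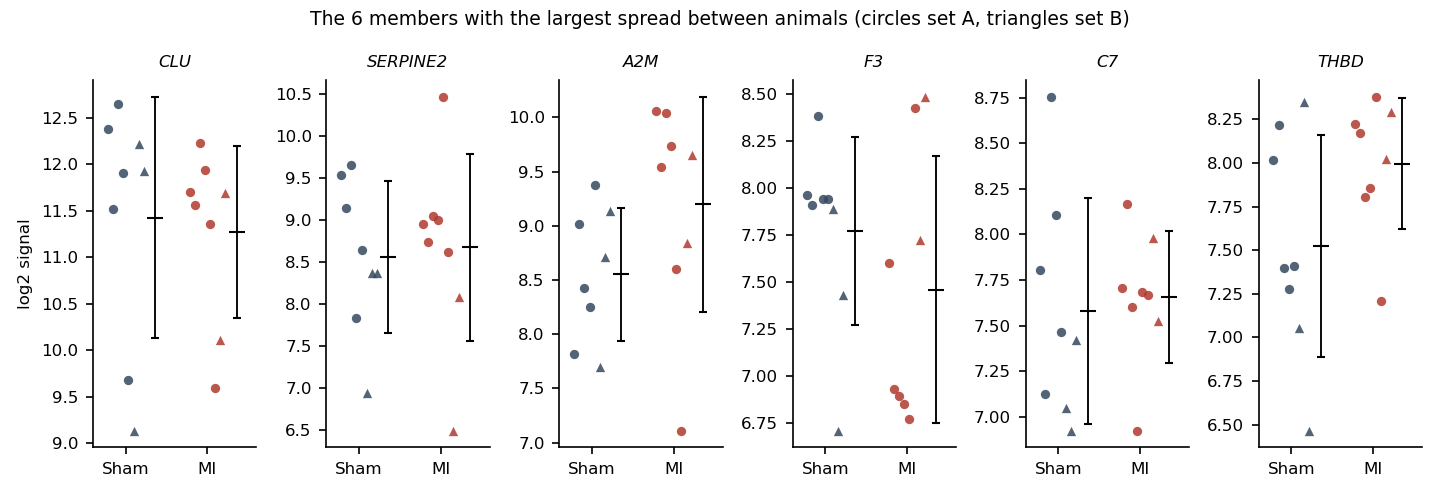
Log2 signal (vertical axes, each with its own range) of the 6 members with the largest SD within group and sex, 1 point per animal, circles for set A and triangles for set B, with bars for the mean ± SD (n = 8). CLU shows 4 low animals, 2 in each group, and F3 shows 4 low MI animals.

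The design also allowed a comparison by sex. By limma 0 of 39 members passed between females and males (2 at an unadjusted p under 0.05), where 0.0591% of all genes and 0.0583% of all probe sets passed. C3 was 8.96 in females and 8.36 in males (difference 0.60, unadjusted p = 0.0038, adjusted p = 0.998), and PROCR was 7.77 and 7.48 (difference 0.29, adjusted p = 0.998). The difference between the sexes in the effect of MI passed for 0 members and for 0% of all genes by limma (1 member at an unadjusted p under 0.05). That member was SERPINE2, with a difference of -0.98 between MI and Sham in females and 1.21 in males (interaction -2.20, SE 0.79, adjusted p = 0.794). Without MI 7 the difference in females was -0.46 and the interaction -1.67 (adjusted p = 0.979), and with MI 7 counted as male the interaction was -1.11 (adjusted p = 0.999). In the fit blocked on the spike-in set 0 members passed and 0 had an unadjusted interaction p under 0.05. There SERPINE2 differed by -0.71 in females and 0.66 in males (interaction -1.36, unadjusted p = 0.0751 by limma). Neither the comparison by sex nor the interaction gave a passing member without MI 7 or with MI 7 counted as male.

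Other genes of these pathways were counted from 2 further lists. Of 28 further complement genes 15 were measured and 10 were above background. By limma 1 fell and 0 rose: C4BPB, a chain of the C4b-binding protein, by 0.32 (adjusted p = 0.0054), at a signal not above background. C1QC and C1QA, chains of the recognition protein C1q, and C4BPA, another chain of the C4b-binding protein, differed by 0.07, 0.08 and 0.44 (adjusted p = 0.872, 0.886 and 0.28). Of 39 further genes of clotting, platelets and fibrinolysis 19 were measured and 15 were above background. Here 1 rose and 0 fell: SERPINA5, the protein C inhibitor, by 0.22 (adjusted p = 0.0243), also not above background. ANXA5, ANXA2 and S100A10, of which the last 2 form a plasminogen receptor, differed by 0.09, 0.16 and 0.11 and did not pass. The median differences of the 2 lists were 0.04 and 0.09, beside 0.0048 over all genes.

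Markers of cells that make these proteins were read in the same samples, where 7.63% of all 6765 genes passed between MI and Sham. Of 12 hepatocyte markers, all measured, 5 were above background. HP, haptoglobin, rose by 0.44 (adjusted p = 0.0287) and AMBP fell by 0.36 (adjusted p = 0.007). The mean over the 12 ran from 5.09 to 5.23 in MI and from 5.04 to 5.28 in Sham, and APOB, TF, APOC3, CYP2E1 and AMBP exceeded 4.99 on no array. Of 5 measured macrophage and monocyte markers (of 8) CD14 rose, and their mean ran from 7.96 to 8.67 in MI and from 7.82 to 8.39 in Sham. Of 3 measured platelet markers (of 5) limma called none (0 with an unadjusted p under 0.05). Their mean ran from 5.65 to 5.87 in MI and from 5.54 to 5.76 in Sham. Of 7 endothelial markers none passed (1 at an unadjusted p under 0.05), with a mean from 8.61 to 8.95 in MI and from 8.27 to 9.49 in Sham.

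Among other marker lists, 4 of 7 T and NK lymphocyte markers rose and 1 fell, beside 7.63% of all 6765 genes passing. The 7 were CD3D, CD3E, CD8A, CD8B, CD247, CD4 and IL7R, with 5 of them above background. The mean over the 7 ran from 5.35 to 5.84 in MI and from 5.33 to 5.88 in Sham. Of 3 measured neutrophil markers 1 rose (mean from 4.28 to 5.07 in MI and from 4.35 to 5.59 in Sham). By sign, 3 of the 7 lymphocyte and 2 of the 3 neutrophil differences were negative, with medians of 0.30 and -0.21. Only 1 of the 3 neutrophil markers was above background. Of 4 erythroid markers 2 rose (6.41 to 7.82 in MI and 6.26 to 6.78 in Sham). Of 4 measured adipocyte markers 2 rose (6.91 to 7.36 and 6.47 to 6.96). Of 2 measured mast cell markers 1 rose (7.31 to 8.47 and 6.62 to 8.04). The erythroid and adipocyte lists each held 1 negative difference. None passed of 5 measured fibroblast markers (10.30 to 10.92 and 10.24 to 11.21), 3 of smooth muscle (9.60 to 10.52 and 9.48 to 10.54), 2 of mesothelium (4.85 to 5.44 and 4.99 to 5.38) or 5 of heart muscle, by limma with 0 at an unadjusted p under 0.05 in each. The part of these cell types in the differences of F5, PROC, CFP and the other passing members was not tested.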

How the data were processed

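Expression was measured on 16 Affymetrix porcine arrays. The authors deposited log2 signals, a scale inferred from values between 2.87 and 14.9, and every array has a median of 6.24; they were used unchanged. How probes were summarised and normalized is not given in the sources used here. Of 24123 probe sets, 124 controls were left out, which left 23999. Gene symbols came from the platform annotation, and all 39 measured members matched RefSeq (Sscrofa11.1) by Entrez identifier. Precision is limited by the number of animals.

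R 4.3.3 and limma 3.58.1 fitted 1 mean per group and sex (12 residual degrees of freedom). MI minus Sham is the mean of the differences in females and males. P-values are two-sided and adjusted by Benjamini-Hochberg over the 23999 probe sets. Set A and set B were split at the largest gap in poly-A minus hybridisation control signal. Set A alone was fitted with the sex term, and set B alone by group only. Nothing in the labels pairs animals across groups. The fit was tested on simulated data for this comparison (23999 probe sets). It called 60 of 100 probe sets changed by 0.5, 91 of 100 changed by 1 and 10 of 23799 unchanged ones. The simulation drew independent normal noise with each probe set's own mean and spread, without differences between the spike-in sets. Its false calls therefore do not give the rate in these data, where 5 of the 23 no-target controls passed. Full values are given for passing members, the 2 of highest mean in each role and the 3 of lowest p not passing. Members, lists, tests and alternatives were chosen with earlier results of these data known, except counting MI 7 as male, added after seeing these values.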

Additional observations from a re-analysis of the deposited data

Results flagged for a closer look

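In 78 sets of 8 values (39 members in 2 groups) 3 single values stood apart from the rest of their group by Dixon's test at 95%, which chance gives in about 1 of 20 sets. CFD in MI 5 was 8.50, and the other MI animals lay between 9.56 and 10.002. PROCR in MI 4 was 7.01, and the others lay between 7.61 and 7.94. TFPI2 in Sham 1 was 9.50, and the other Sham animals lay between 8.74 and 9.02.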

How the results depend on the processing

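Of 7 members passing between MI and Sham, 7 passed without the sex term and after quantile normalization or median centring. All 7 also passed with an offset of 32, with a trend and robust estimation, with array weights and blocked on the spike-in set. In these alternatives 2234 (offset of 32) to 3245 (array weights) of all 23999 probe sets passed. Without 1 animal 4 to 7 members passed (4 without MI 2, MI 3, Sham 6 or Sham 7), 4 to 6 of them among the original 7, since without Sham 2 PROC did not pass and THBD did. The probe sets passing numbered 2527 with all animals and 2045 to 2537 without 1. No member passed among the 16000 brightest probe sets (654 probe sets passed), among those above background (993) or in set B alone (1 probe set, 2643 at an unadjusted p under 0.05; 3, 5 and 3 members at that level in this order). At an adjusted p under 0.01 there were 3 members and 1123 probe sets, and at 1.5-fold or more 1 member, FGG, and 207 probe sets. Set A gave 5 members (2324 probe sets). The fit without MI 7 and with the set as a block gave 5 (2748 probe sets). With MI 7 counted as male there were 6 (2315 probe sets; PROC 0.0705). The animal number as a replicate block gave 6 members (2645 probe sets), 5 of them among the 7. SERPIND1 (0.0597) and PROC (0.0557) did not pass, and C4A did (-0.25, 0.0344). Same-numbered animals correlated from -0.22 to 0.50 in their deviations, over 0.1 in 5 of 8 pairs. These values do not settle whether the numbers are pairs. The labels name no pairs, so the main fit used none. Over 1271 pairs of a member and an alternative 0 reversed a call, 62 lost one, 2 gained one, and in 50 the sign turned while neither value passed. Calls by sex and for the interaction stayed at 0 in every alternative run for them. Signal in the no-target range limits 7 of the 39 members, and PLG, TFPI, PROC and SERPIND1 exceeded it on some arrays only.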
